A study of Mus musculus with 16 samples.

Results

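The 35 genes described here lie around Fgf10 on mouse chromosome 13. They were taken as the array features whose platform symbol, older symbols included, named a gene of a list of neighbours of Fgf10. The rule itself uses no measured value, but the list was chosen with earlier results of these arrays known. Features for all 35 were found, and all 35 were among the 20173 genes tested. Skiv2l2 stood for Mtrex and Gm6320 for Mcidas. The list did not hold every gene of the stretch: 14 further tested genes lay between Gpbp1, the first gene listed, and the end of the chromosome.

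Homogenised lung of mouse pups, taken at P3 (postnatal day 3), gave the RNA for 16 single-colour arrays, 4 per group. The groups were Fgf10+/- in normoxia, wild type in normoxia, Fgf10+/- in hyperoxia and wild type in hyperoxia. Hyperoxia was 85% oxygen in a chamber from postnatal day 0 to day 3. Fgf10+/- denotes 1 wild-type and 1 mutant Fgf10 allele, and no promoter or recombinase that would limit the mutation to some cells is named. The sources used here do not state how that allele was made, nor the strain and litters of the pups. Nothing in the labels said that the 4 arrays of a group came from separate litters, so p-values measure the spread between these samples.

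Fgf10 encodes a growth factor that lung mesenchyme secretes to drive branching and growth of the epithelium. In a mouse line with a disrupted gene, DNA on either side of the disrupted allele is inherited with it, so that neighbours of the gene can keep the sequence of the strain in which the allele was made; whether that holds for these pups was not tested. Nnt, the gene next to Fgf10 in the order of tested genes, is a known strain marker: C57BL/6J mice carry a deletion within it, and many other strains do not. The other genes of this stretch have no common role, and include cytokine receptors, integrins, granzymes, mitochondrial proteins and translation factors.

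Replicate arrays of a group correlated at r between 0.974 and 0.983 over the tested genes. The number of arrays limits the precision. All 10 lung epithelial markers were tested, and Sftpc lay between 15.97 and 15.99 on the deposited log2 scale, whose highest value was 15.99. Wild-type normoxia replicate 4 stood apart in skeletal muscle markers, with a mean log2 signal of 8.40 over 10 genes, against 4.98 to 5.35 in the other arrays of its group, and in brown fat markers, with 7.22 over 7 genes, against 5.46 to 5.91. Y-linked Eif2s3y marked 2 of 4 pups as male in Fgf10+/- normoxia, 1 of 4 in wild-type normoxia, 1 of 4 in Fgf10+/- hyperoxia and 2 of 4 in wild-type hyperoxia.

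Fgf10 itself was read first, as a check of the labels. Its log2 signal was 7.88, 8.29, 8.29 and 8.66 in Fgf10+/- normoxia arrays, against 7.83, 8.14, 7.24 and 7.97 in wild-type normoxia arrays. In hyperoxia it was 7.39, 7.96, 7.73 and 7.48 in Fgf10+/- arrays, against 7.64, 7.80, 7.90 and 8.07 in wild-type arrays. The groups overlapped at both oxygen levels, and averaged over both levels the arrays labelled Fgf10+/- differed from wild type by 0.13 ± 0.14 (log2, SE, limma adjusted p = 0.757). That average joined opposite signs: 0.48 ± 0.20 in normoxia (adjusted p = 0.335) and -0.21 ± 0.20 in hyperoxia (adjusted p = 0.835). These values come from the brightest Fgf10 feature, which therefore did not separate the genotypes. Every kept Fgf10 feature lay above 0 in normoxia (0.07 to 0.48) and below 0 in hyperoxia (-0.40 to -0.06). All overlapped and none passed at either level, and features of 1 gene on the same arrays are not replicates. Whether the disrupted allele still makes RNA that these features can read was not analysed here.

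Of the 35 genes, 5 differed by genotype when both oxygen levels were averaged, and all 5 lay among the 8 listed genes from Emb, just before Fgf10, to the end of the chromosome. Nnt and Paip1 were higher in Fgf10+/- lung, and Emb, 4833420G17Rik and AF067061 were lower, with differences of 0.53 to 0.76 in size on the log2 scale. The promoters of those genes for which the RefSeq table held one are shown first, because they lie within the stretch where the differences fell. Each is the 300 bases that run from 250 before to 50 after the annotated start, printed from 5′ to 3′ on the plus strand of GRCm38.p6. Capitals mark matches, on either strand, to GGGCGG (the GC box), CCAAT and TATAA.
Emb, chr13:117220323-117220622: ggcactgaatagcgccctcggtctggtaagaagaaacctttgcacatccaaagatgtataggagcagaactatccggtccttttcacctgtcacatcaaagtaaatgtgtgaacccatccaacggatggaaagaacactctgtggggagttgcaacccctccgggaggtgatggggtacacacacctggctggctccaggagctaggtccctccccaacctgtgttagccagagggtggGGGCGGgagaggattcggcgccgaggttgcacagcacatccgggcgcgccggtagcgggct
Paip1, chr13:119428350-119428649, the first of 2 entries: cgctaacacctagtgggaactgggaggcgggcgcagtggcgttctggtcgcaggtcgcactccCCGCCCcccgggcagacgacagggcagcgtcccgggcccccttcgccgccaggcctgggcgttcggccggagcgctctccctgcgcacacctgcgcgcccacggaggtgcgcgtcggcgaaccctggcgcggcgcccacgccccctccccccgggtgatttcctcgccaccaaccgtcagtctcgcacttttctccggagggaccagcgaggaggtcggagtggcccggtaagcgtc
4833420G17Rik, chr13:119462509-119462808: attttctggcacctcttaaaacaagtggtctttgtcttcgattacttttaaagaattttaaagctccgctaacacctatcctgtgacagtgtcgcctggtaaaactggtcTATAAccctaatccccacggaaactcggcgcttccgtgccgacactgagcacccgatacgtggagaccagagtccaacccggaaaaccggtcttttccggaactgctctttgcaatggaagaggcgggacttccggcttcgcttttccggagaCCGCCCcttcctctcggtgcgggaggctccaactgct
AF067061, chr13:120262845-120263144: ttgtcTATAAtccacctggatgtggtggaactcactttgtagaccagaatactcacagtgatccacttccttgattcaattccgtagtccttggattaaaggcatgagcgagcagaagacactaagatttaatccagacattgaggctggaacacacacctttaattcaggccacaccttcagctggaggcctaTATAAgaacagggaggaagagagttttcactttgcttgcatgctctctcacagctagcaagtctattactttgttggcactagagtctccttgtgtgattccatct
The windows differed in composition. Bases G and C made up 57.7% of the Emb window, 73.3% of the Paip1 window, 52.3% of the 4833420G17Rik window and 44.0% of the AF067061 window, against a median of 52.7% over 32851 promoters. The Paip1 window held 38 CpG dinucleotides and the AF067061 window 2, against a median of 7. The GC box letters occurred once each in the Emb, Paip1 and 4833420G17Rik windows and not in that of AF067061, and 35.7% of all promoters held them. TATAA occurred 1 time in the 4833420G17Rik window and 2 times in the AF067061 window, and 24.9% of all promoters held it. CCAAT, found in 37.4% of all promoters, was in none of the 4 windows. These matches describe letters only.

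Averaged over both oxygen levels, 5 of the 35 genes passed an adjusted p of 0.05 in limma, which was 14.3% of them, against 2.24% of all tested genes. With the 14 unlisted genes of the stretch, none of which passed, it was 5 of 49, or 10.2%. By direction, 2 were higher, against 0.917% of all tested genes, and 3 were lower, against 1.32%. The median size of the averaged difference was 0.13 over the 35 genes and 0.13 over all tested genes, and the median signed difference was -0.0244 over the 35 genes, against -0.0037 over all tested genes. At an unadjusted p under 0.05 the count was 10 of 35, or 28.6%, against 14.2% of all tested genes.

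At single oxygen levels fewer genes passed. In normoxia 3 of 35 passed, or 8.57%, against 0.719% of all tested genes: Nnt was higher in Fgf10+/- lung, and Emb and 4833420G17Rik were lower. That count fell to 1, 4833420G17Rik, without any single one of wild-type normoxia replicates 1, 2 and 3 or Fgf10+/- normoxia replicates 2 and 4. In hyperoxia 2 of 35 passed, or 5.71%, against 0.411% of all tested genes, and both 4833420G17Rik and AF067061 were lower. It was 3 without Fgf10+/- hyperoxia replicate 1, the third being Nnt. With only the 8 arrays of an oxygen level in the fit, none of the 35 and no gene of the 20173 passed at either level.

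The change of the genotype difference between oxygen levels (the interaction) passed for 0 of 35 genes and for 0.0% of all tested genes in limma. At an unadjusted p under 0.05 it did so for 4 of the 35, namely Mier3, Hspb3, Emb and AF067061, and for 1335 of all tested genes, or 6.62%. No gene was therefore shown to have a genotype difference that changed between the oxygen levels.

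Nnt (nicotinamide nucleotide transhydrogenase) makes NADPH in the inner mitochondrial membrane from the proton gradient. The log2 signal was 10.51, 10.56, 10.47 and 10.60 in Fgf10+/- normoxia arrays, against 9.93, 9.83, 9.85 and 9.84 in wild-type normoxia arrays. All 4 Fgf10+/- arrays lay above all 4 wild-type arrays. Hyperoxia values were 9.82, 10.40, 10.22 and 10.31 in Fgf10+/- arrays, against 9.88, 9.58, 9.80 and 9.90 in wild-type arrays. Here Fgf10+/- replicate 1 lay inside the wild-type range and the other three lay above it. The difference was 0.67 ± 0.12 in normoxia (limma adjusted p = 0.0175), 0.40 ± 0.12 in hyperoxia (adjusted p = 0.244) and 0.53 ± 0.08 averaged (adjusted p = 0.00442), or 1.45-fold higher in Fgf10+/- lung. Without Fgf10+/- hyperoxia replicate 1 the hyperoxia difference was 0.52, with an adjusted p of 0.0347. The exact two-sided permutation p of the averaged difference was 0.00122. Both dimmer Nnt features, with mean signals of 4.76 and 4.01, gave averaged differences of -0.34 and 0.62 that did not pass (adjusted p = 0.595 and 0.342). Which exons these features read was not analysed here.

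Paip1 binds the poly(A)-binding protein and promotes translation. Log2 signals were 7.40, 7.60, 7.47 and 7.72 in Fgf10+/- normoxia arrays, against 6.34, 7.04, 7.12 and 6.88 in wild-type normoxia arrays. Under hyperoxia the signal was 7.71, 7.38, 7.72 and 7.65 in Fgf10+/- arrays, against 7.19, 6.88, 6.80 and 6.76 in wild-type arrays. The genotypes did not overlap at either level. The difference was 0.70 ± 0.16 in normoxia (limma adjusted p = 0.0649), 0.71 ± 0.16 in hyperoxia (adjusted p = 0.0945) and 0.70 ± 0.11 averaged (adjusted p = 0.0051), or 1.63-fold higher in Fgf10+/- lung. A second, dimmer Paip1 feature, with a mean signal of 5.03, went the other way by -0.23 and did not pass (adjusted p = 0.689).

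4833420G17Rik, named after a cDNA clone, showed the smallest adjusted p of the 35 genes. Its log2 signal was 9.79, 9.62, 9.66 and 9.84 in Fgf10+/- normoxia arrays, against 10.58, 10.57, 10.33 and 10.52 in wild-type normoxia arrays. In hyperoxia it was 9.98, 9.76, 10.05 and 9.88 in Fgf10+/- arrays, against 10.63, 10.65, 10.59 and 10.57 in wild-type arrays. All 8 Fgf10+/- arrays lay below all 8 wild-type arrays. The difference was -0.77 ± 0.09 in normoxia (limma adjusted p = 0.0019), -0.70 ± 0.09 in hyperoxia (adjusted p = 0.00956) and -0.73 ± 0.06 averaged (adjusted p = 0.00015), or 1.66-fold lower in Fgf10+/- lung. A second feature gave -0.59 averaged, in the same direction, with an adjusted p of 0.0857.

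AF067061 lies near the distal end of the chromosome and carries only an accession as its name. It has similarly named neighbours, so that which copy the feature reads is uncertain. The log2 signal was 4.06, 4.14, 3.80 and 3.77 in Fgf10+/- normoxia arrays, against 4.49, 4.61, 4.25 and 4.50 in wild-type normoxia arrays. Hyperoxia values were 3.72, 3.70, 3.80 and 4.05 in Fgf10+/- arrays, against 5.11, 4.87, 4.78 and 4.51 in wild-type arrays. The genotypes did not overlap at either level, but the signal was dim: all Fgf10+/- values and 3 of 4 wild-type normoxia values lay under the array median of 4.50, and the lowest Fgf10+/- value, 3.70, stood near the 25th percentile of 3.69. The difference was -0.52 ± 0.14 in normoxia (limma adjusted p = 0.112), -0.998 ± 0.14 in hyperoxia (adjusted p = 0.0108) and -0.76 ± 0.10 averaged (adjusted p = 0.00133). A second feature, with a mean signal of 3.67, gave -0.50 averaged and did not pass (adjusted p = 0.503).

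Emb (embigin) is a membrane glycoprotein that accompanies monocarboxylate transporters. Log2 signals were 9.03, 8.60, 8.80 and 8.53 in Fgf10+/- normoxia arrays, against 9.52, 9.44, 9.55 and 9.59 in wild-type normoxia arrays. Under hyperoxia the signal was 10.27, 9.66, 10.01 and 9.67 in Fgf10+/- arrays, against 10.37, 10.16, 10.15 and 10.32 in wild-type arrays. The genotypes were apart in normoxia and overlapped in hyperoxia through Fgf10+/- replicate 1. The difference was -0.79 ± 0.14 in normoxia (limma adjusted p = 0.0215), -0.35 ± 0.14 in hyperoxia (adjusted p = 0.472) and -0.57 ± 0.10 averaged (adjusted p = 0.0094), or 1.48-fold lower in Fgf10+/- lung. The lung epithelial markers lay the same way as Emb averaged over both levels, with a median of -0.20. Of these 10 markers 4 were lower, namely Abca3, Napsa, Nkx2-1 and Sftpa1, and none was higher. Their mean log2 signal per array lay between 12.37 and 12.48 in Fgf10+/- normoxia, against 12.75 to 12.93 in wild-type normoxia, and between 12.76 and 12.86 in Fgf10+/- hyperoxia, against 12.89 to 13.03 in wild-type hyperoxia. Medians of the multiciliated cell, skeletal muscle, cardiac muscle and brown fat marker lists lay further below 0 (-0.41, -0.67, -0.36 and -0.34). The part of any of these lists in the Emb result was not tested. In a homogenate, fewer cells of a type and less RNA per cell cannot be told apart.

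Fgf10+/- hyperoxia replicate 1, which lay within the wild-type range for Nnt and Emb, lay with the other Fgf10+/- arrays for Paip1, 4833420G17Rik and AF067061. In Paip1, 4833420G17Rik and AF067061 the averaged difference had an exact permutation p of 0.000408, the smallest this design allows. Within 1 oxygen level no exact p can go below 0.0286.

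**Figure D1:**
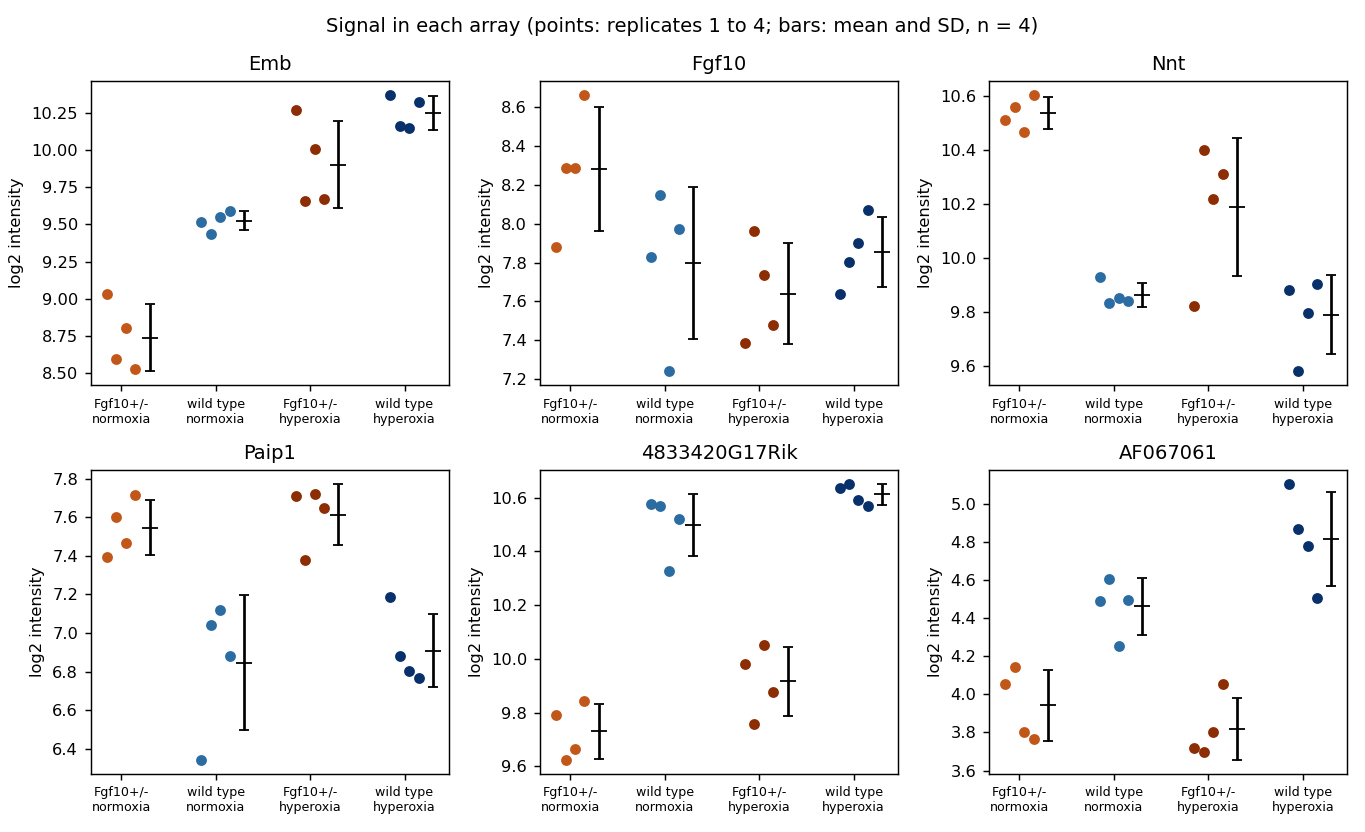
Log2 signal of Fgf10 and of the 5 genes called for genotype in each of 16 arrays (vertical axes, a separate scale per gene), by group along the horizontal axis; points are arrays and bars are the mean and SD (n = 4). Fgf10 overlaps between genotypes, Nnt and Paip1 are higher in Fgf10+/- groups, and Emb, 4833420G17Rik and AF067061 are lower.

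Along the chromosome, the 5 genes were not neighbours throughout. Counting tested genes from Fgf10, Emb stood 3 places before it, and Nnt, Paip1 and 4833420G17Rik followed it at places 1, 2 and 3. AF067061 stood at place 13. Mrps30, directly before Fgf10, differed by -0.05 averaged (limma adjusted p = 0.775). Ccl28 and Zfp131, at places 6 and 8, differed by -0.21 and 0.04 (adjusted p = 0.817 and 0.879).

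The split at Emb was made after the values were seen. From Emb onward 5 of 8 listed genes passed for the averaged difference, against 2.24% of all tested genes, and the median size was 0.55. Before Emb 0 of 27 passed, 5 (18.5%) had an unadjusted p under 0.05, against 14.2% of all tested genes, and the median size was 0.10, against 0.13 over all tested genes. None of the 14 unlisted genes from Gpbp1 to the end passed, nor had any an unadjusted p under 0.05. All of them but Plpp1, 4930467J12Rik, Rpl34-ps2 and Gm6416 lie from Emb onward. The share called there is therefore lower over all its tested genes than over those listed. Of the 35 tested genes before Gpbp1 only Cenpk, a kinetochore gene, passed, at 0.63 (limma adjusted p = 0.0132). On the rest of chromosome 13, 12 of 723 genes passed, or 1.66%.

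**Figure D2:**
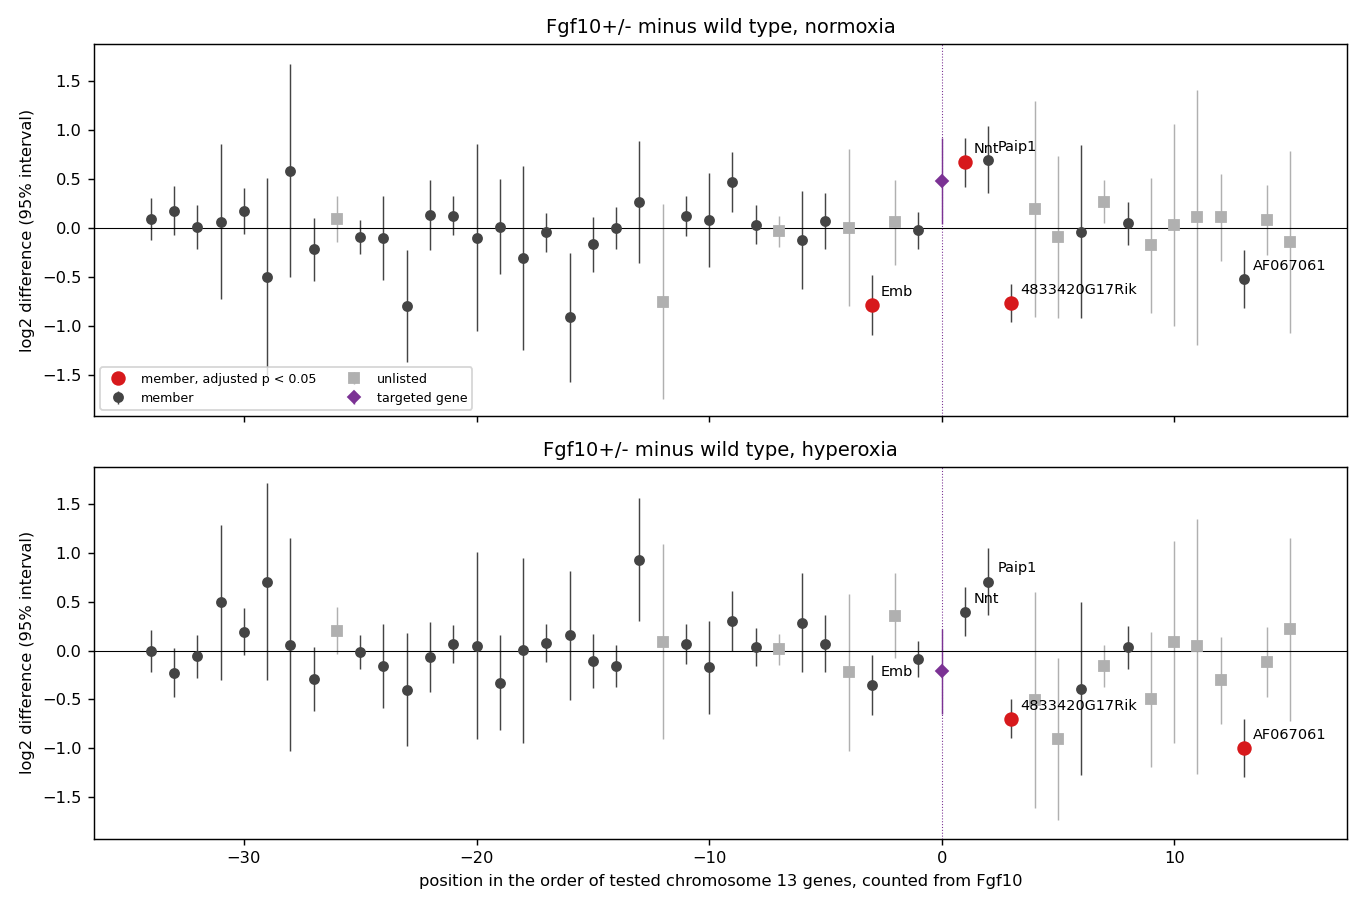
Difference of Fgf10+/- minus wild type (vertical axis, log2, with 95% intervals) in normoxia (top) and hyperoxia (bottom), for tested genes from Gpbp1 to the end of chromosome 13, in gene order counted from Fgf10 (horizontal axis). Red marks genes called at the oxygen level of the panel: Emb, Nnt and 4833420G17Rik in normoxia, and 4833420G17Rik and AF067061 in hyperoxia. They lie from place -3 to place 13. Paip1, called for the averaged difference only, is red in neither panel, and none of the 14 unlisted genes, in grey, was called.

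The genotypes did not overlap for 6 of the 35 genes in normoxia, against 7.53% of all tested genes: Itga1, Emb, Nnt, Paip1, 4833420G17Rik and AF067061. In hyperoxia they did not overlap for 7, against 5.98% of all: Il6st, Slc38a9, Ccno, Fst, Paip1, 4833420G17Rik and AF067061. They were apart in the same direction at both levels for 3, against 1.26% of all: Paip1, 4833420G17Rik and AF067061.

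The normoxia and hyperoxia differences come from separate arrays. They had the same sign for 22 of 35 genes (62.9%), against 56.4% of all tested genes. Without the 5 called genes the sign was the same for 17 of 30 (56.7%). Across the 35 genes Pearson's r between both differences was 0.50, and across the other 30 it was 0.15, as across all tested genes (0.15). Genes of one array set are not independent replicates, and these r values are descriptions.

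**Figure D3:**
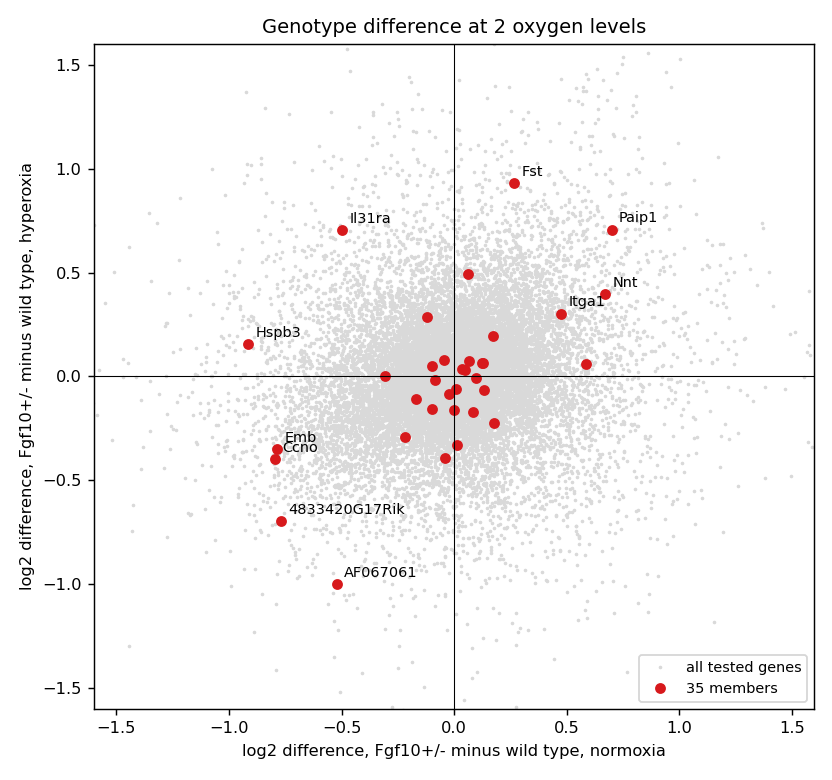
Genotype difference in hyperoxia (vertical axis) against that in normoxia (horizontal axis), both Fgf10+/- minus wild type in log2, for the 35 genes (red) and all 20173 tested genes (grey); 35 grey points lie beyond the axes, which end at 1.6. 4833420G17Rik, AF067061, Paip1, Nnt and Emb lie off both axes in matching quadrants, and Hspb3 and Il31ra lie in opposite ones.

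Several features read 10 of the 35 genes above the filter. The calls rested on the brightest feature of each gene: 5 of 59 kept features passed for the averaged difference, against 1.8% of 30551 kept features, and each belonged to a different gene. Arl15, a small GTPase read by 10 features, gave 10 averaged differences between -0.25 and -0.04, and none passed. The kept features of Isl1, all with means under the array median, disagreed. Their averaged differences ran from -0.28 to 0.96, and none passed (lowest adjusted p = 0.0995). With the mean of all kept features standing for a gene, 4833420G17Rik remained called. Nnt (0.27, adjusted p = 0.17), Paip1 (0.23, adjusted p = 0.415) and AF067061 (-0.63, adjusted p = 0.0651) were not. Emb also remained called, but it was read by 1 feature, so that this choice left its values unchanged.

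**Figure D4:**
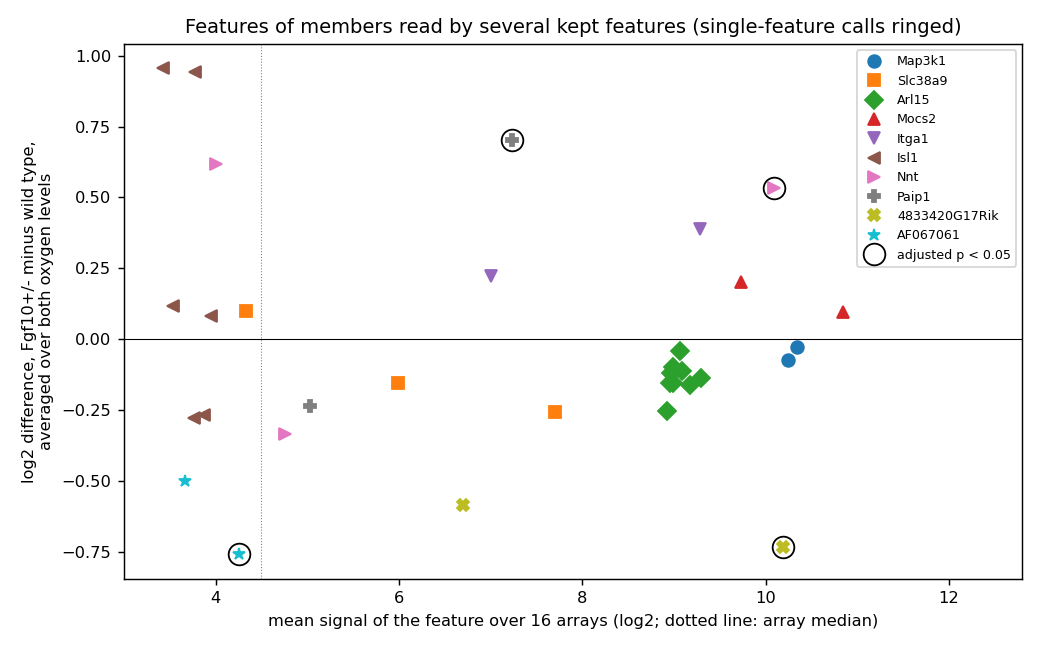
Averaged genotype difference (vertical axis, Fgf10+/- minus wild type, log2) against mean signal over 16 arrays (horizontal axis, log2) for each kept feature of the 10 genes read by several; the dotted line is the array median of 4.50 and rings mark adjusted p under 0.05. The ringed feature of Nnt, Paip1, 4833420G17Rik and AF067061 is the brightest of its gene, and a dimmer Nnt feature and the dimmer Paip1 feature lie on the other side of 0.

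Among the receptors, ligands and matrix-binding genes, none of 7 passed for genotype. Itga1, the collagen-binding integrin alpha 1 chain, came closest. Its log2 signal was 9.78, 9.99, 9.84 and 10.15 in Fgf10+/- normoxia arrays, against 9.37, 9.71, 9.23 and 9.56 in wild-type normoxia arrays, and these did not overlap. In hyperoxia it was 8.83, 9.26, 9.11 and 8.87 in Fgf10+/- arrays, against 8.93, 8.77, 8.43 and 8.73 in wild-type arrays, and these did overlap. The averaged difference was 0.39 ± 0.10 (limma adjusted p = 0.0653). It passed in 3 of 25 limma alternatives, and the adjusted p reached 0.248. These 3 were the filter at the 50th percentile (adjusted p = 0.037), the trend and robust options (0.0109) and array weights (0.0345). A second, dimmer Itga1 feature gave 0.22 averaged, overlapped between genotypes at both levels and did not pass (adjusted p = 0.564). Itga2, the collagen-binding relative of Itga1, differed by -0.04 (adjusted p = 0.942).

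Fst (follistatin) binds and blocks activins. The log2 signal was 6.82, 5.61, 5.16 and 5.31 in Fgf10+/- normoxia arrays, against 5.86, 5.32, 5.42 and 5.24 in wild-type normoxia arrays. Hyperoxia values were 7.31, 7.87, 7.71 and 7.63 in Fgf10+/- arrays, against 6.87, 6.72, 6.88 and 6.32 in wild-type arrays. The genotypes overlapped in normoxia and were apart in hyperoxia. The difference was 0.27 ± 0.29 in normoxia (limma adjusted p = 0.776), 0.93 ± 0.29 in hyperoxia (adjusted p = 0.29) and 0.60 ± 0.21 averaged (adjusted p = 0.174), and the interaction did not pass (0.67 ± 0.41, adjusted p = 0.82).

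Il6st encodes gp130, the shared signalling chain of the interleukin-6 receptor family. In hyperoxia its log2 signal was 10.02, 10.23, 10.20 and 10.26 in Fgf10+/- arrays, against 10.01, 9.97, 9.95 and 10.00 in wild-type arrays. These were apart by a small margin, and the averaged difference was 0.18 ± 0.08 (limma adjusted p = 0.3). Il31ra, a receptor chain for interleukin-31, and the chemokine gene Ccl28 had mean signals of 3.53 and 3.77, under the array median. Esm1, an endothelial proteoglycan, differed by -0.15 ± 0.31 averaged (adjusted p = 0.891).

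Ccno and Mcidas act in the programme that multiplies centrioles in multiciliated cells. The Ccno log2 signal was 7.11, 7.54, 7.72 and 7.13 in Fgf10+/- normoxia arrays, against 8.91, 7.68, 8.58 and 7.52 in wild-type normoxia arrays. Under hyperoxia the signal was 8.73, 8.71, 8.79 and 8.66 in Fgf10+/- arrays, against 9.33, 9.43, 8.80 and 8.92 in wild-type arrays. The genotypes overlapped in normoxia and were apart in hyperoxia. The averaged difference was -0.60 ± 0.19 (limma adjusted p = 0.135). It was -0.71 (adjusted p = 0.048) without wild-type normoxia replicate 4, the array with high muscle markers and the lowest Ccno signal of its group. Of 25 limma alternatives this was the only 1 in which Ccno passed, and the adjusted p reached 0.24.

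Multiciliated cell markers lay the same way as Ccno without passing. None of 13 passed for genotype, their median averaged difference was -0.41, and Dnah5 and Tppp3 had the smallest adjusted p (0.0513 and 0.0565). Their mean log2 signal per array was 6.86 to 7.16 in Fgf10+/- normoxia, against 7.23 to 7.67 in wild-type normoxia, and 7.63 to 8.23 in Fgf10+/- hyperoxia, against 8.06 to 8.53 in wild-type hyperoxia. Their part in the Ccno values was not tested. Mcidas differed by 0.03 ± 0.12 averaged (adjusted p = 0.941). Its feature, annotated as Gm6320, had a mean signal of 11.36, above every one of these markers, of which Tppp3 was brightest at 10.74. Whether that feature reads RNA of Mcidas alone was not analysed here.

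Of the 5 redox and mitochondrial genes only Nnt passed for genotype. Gpx8 (a glutathione peroxidase of the endoplasmic reticulum), Mocs2 (molybdenum cofactor synthesis), Ndufs4 (a subunit of respiratory complex I) and Mrps30 (a mitochondrial ribosomal protein) differed by -0.08 to 0.10. Of the 5 genes of RNA handling and translation only Paip1 passed. Mtrex (an RNA exosome helicase), Dhx29 (a helicase of translation initiation) and Pelo (which rescues stalled ribosomes) differed by -0.13 to 0.04, and the germ cell helicase Ddx4 was under the array median with a mean of 3.74. By the brightest feature, no other gene of these groups was apart between genotypes at either oxygen level. A second Mocs2 feature was apart in hyperoxia, higher in Fgf10+/- arrays by 0.27, and did not pass (limma adjusted p = 0.47).

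The granzymes Gzma and Gzmk, proteases of cytotoxic lymphocytes, did not pass for genotype. Gzma ranged widely within groups, with 8.79, 7.56, 7.90 and 7.17 in Fgf10+/- normoxia arrays, against 8.38, 8.20, 8.73 and 6.50 in wild-type normoxia arrays. Its averaged difference was -0.02 ± 0.32 (limma adjusted p = 0.987), with a 95% interval of -0.70 to 0.65. None of 12 cytotoxic lymphocyte markers passed either, and the median was -0.11.

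None of the 5 signalling and transcription genes passed, and by their brightest features the averaged differences lay between -0.03 and 0.08. They are Gpbp1 and Zfp131 (both transcription regulators), Mier3 (a chromatin-associated protein), Map3k1 (a kinase of the JNK pathway) and Isl1 (a homeodomain factor of heart, pancreas and motor neurons, mean signal 3.95). Among transport and trafficking genes, Slc38a9, a lysosomal amino acid sensor for mTORC1, differed by -0.26 ± 0.11 (adjusted p = 0.285). Snx18 (a sorting nexin) and Arl15 differed by 0.02 and -0.14. Parp8, a member of the poly(ADP-ribose) polymerase family, differed by 0.07 (adjusted p = 0.817). Ankrd55 and the small heat-shock protein gene Hspb3 had mean signals of 3.48 and 4.18, and did not pass. In all, 7 of the 35 genes had a mean under the array median, AF067061 among them.

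Genes that work with the members but lie elsewhere in the genome were read from lists of partners, and none passed for the averaged genotype difference. These were 15 genes of gp130 signalling (median 0.02), 8 other matrix receptor genes (0.05), 9 of activin and follistatin signalling (0.22), 13 complex I subunits (-0.03), 11 of mitochondrial NADPH and redox (-0.06) and 10 of ribosome rescue and translation (0.04). The nearest in each were Osmr (0.35, limma adjusted p = 0.113), Ddr1 (-0.17, 0.4), Fstl1 (0.28, 0.0652), Ndufv1 (-0.11, 0.337), Txnrd2 (-0.34, 0.0764) and Eif4e (0.11, 0.566). In marker lists of other cells, 0 of 10 endothelial (median 0.02) and 0 of 6 germ cell genes (0.07) were called. Skeletal muscle gave 0 of 10 (-0.67) and cardiac muscle 0 of 8 (-0.36). In normoxia alone 1 cardiac muscle marker was lower (median -0.77), and in hyperoxia 0 were called (0.09). Fgf10+/- hyperoxia replicate 4 had a mean cardiac marker signal of 11.09, against 9.62 to 10.22 in the other arrays of its group. Equal muscle content of the groups was therefore not shown. Of 7 brown fat markers Plin5 was lower (-0.56, adjusted p = 0.0070), and it was -0.55 (adjusted p = 0.0114) without wild-type normoxia replicate 4, a comparison added after that array's markers were seen.

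More of the 35 genes passed for hyperoxia than for genotype, in shares near those of the whole array. In Fgf10+/- lung 9 of 35 passed, or 25.7%, against 23.7% of all tested genes: 6 were higher in hyperoxia, against 13% of all, and 3 lower, against 10.7%. In wild-type lung 8 passed, or 22.9%, against 19.1% of all: 6 were higher, against 10.3%, and 2 lower, against 8.74%. Both oxygen comparisons use separate arrays, and 7 of 35 genes (20%) passed in both, all 7 in the same direction, against 14.2% of all tested genes that passed in both in the same direction: Ccno, Esm1, Fst, Emb and Mrps30 were higher, and Itga1 and Pelo lower. Hspb3 and Nnt passed in Fgf10+/- lung alone and Ndufs4 in wild-type lung alone, but their interactions did not pass (adjusted p = 0.734, 0.816 and 0.878).

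Esm1 rose by 1.73 ± 0.44 in Fgf10+/- lung (limma adjusted p = 0.0105) and by 1.42 ± 0.44 in wild-type lung (adjusted p = 0.036), where its arrays overlapped between oxygen levels. Fst rose by 1.91 ± 0.29 in Fgf10+/- lung (limma adjusted p = 0.000319) and by 1.24 ± 0.29 in wild-type lung (adjusted p = 0.00821), and its hyperoxia arrays lay above its normoxia arrays in both genotypes. Emb rose by 1.16 ± 0.14 in Fgf10+/- lung (adjusted p = 6.4e-05) and by 0.73 ± 0.14 in wild-type lung (adjusted p = 0.00257). Of 10 lung epithelial markers 5 rose in Fgf10+/- lung, where the median difference was 0.37, and 2 rose in wild-type lung, where the median was -0.02 and 6 of 10 lay below 0. None passed as lower in either genotype, and their part in the Emb rise was not tested. Ccno rose by 1.35 ± 0.27 in Fgf10+/- lung (adjusted p = 0.00225) and by 0.95 ± 0.27 in wild-type lung (adjusted p = 0.0234). Of 13 multiciliated cell markers 9 rose in Fgf10+/- lung and 6 in wild-type lung, and none fell. Their part in the Ccno rise was not tested. Over all tested genes 13% rose in Fgf10+/- lung and 10.3% in wild-type lung. The feature annotated to Mcidas had values of -0.46 in Fgf10+/- lung and -0.26 in wild-type lung, and did not pass.

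Mrps30 had log2 signals of 9.75, 9.98, 9.84 and 9.72 in Fgf10+/- hyperoxia arrays, against 9.26, 9.19, 9.41 and 9.24 in Fgf10+/- normoxia arrays. In wild-type lung they were 9.95, 9.78, 9.98 and 9.91 in hyperoxia, against 9.30, 9.35, 9.19 and 9.34 in normoxia. The oxygen levels did not overlap in either genotype, and the rise was 0.55 ± 0.09 in Fgf10+/- lung (limma adjusted p = 0.00044) and 0.61 ± 0.09 in wild-type lung (adjusted p = 0.000298). Among nuclear-encoded complex I subunits, 8 of 13 rose in each genotype, against 13% of all tested genes in Fgf10+/- lung and 10.3% in wild-type lung. Any link of these subunits to the rise of Mrps30 was not tested.

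Itga1 fell by 0.92 ± 0.14 in Fgf10+/- lung (limma adjusted p = 0.000354) and by 0.75 ± 0.14 in wild-type lung (adjusted p = 0.00217). Pelo, which overlaps Itga1 on the chromosome, had log2 signals of 10.61, 10.68, 10.43 and 10.63 in Fgf10+/- hyperoxia arrays, against 10.94, 10.96, 11.02 and 11.09 in Fgf10+/- normoxia arrays. In wild-type lung they were 10.56, 10.52, 10.63 and 10.49 in hyperoxia, against 10.78, 11.14, 10.96 and 10.99 in normoxia. It fell by 0.41 ± 0.09 in Fgf10+/- lung (adjusted p = 0.00439) and by 0.42 ± 0.09 in wild-type lung (adjusted p = 0.00537). Whether a feature of one of this pair can read RNA of the other was not analysed here. Of 10 genes of ribosome rescue and translation, 3 fell in Fgf10+/- lung and 4 in wild-type lung, and none rose. Over all tested genes 10.7% fell in Fgf10+/- lung and 8.74% in wild-type lung. Any link of this list to the fall of Pelo was not tested.

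Of the 5 genes called for genotype, only Emb passed for hyperoxia in both genotypes. Nnt fell by 0.35 ± 0.12 in Fgf10+/- lung (limma adjusted p = 0.0446), against -0.07 ± 0.12 in wild-type lung (adjusted p = 0.74). The Fgf10+/- normoxia arrays enter both this comparison and the genotype comparison in normoxia. Paip1 differed by 0.07 in Fgf10+/- lung and 0.06 in wild-type lung, 4833420G17Rik by 0.19 in Fgf10+/- lung and 0.11 in wild-type lung, and AF067061 by -0.12 in Fgf10+/- lung and 0.35 in wild-type lung, and none of these passed. Fgf10 fell by 0.64 ± 0.20 in lung labelled Fgf10+/- (adjusted p = 0.0347), while its difference in wild-type lung was 0.06 ± 0.20, above 0 (adjusted p = 0.897), with an interaction that did not pass (adjusted p = 0.737).

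**Figure D5:**
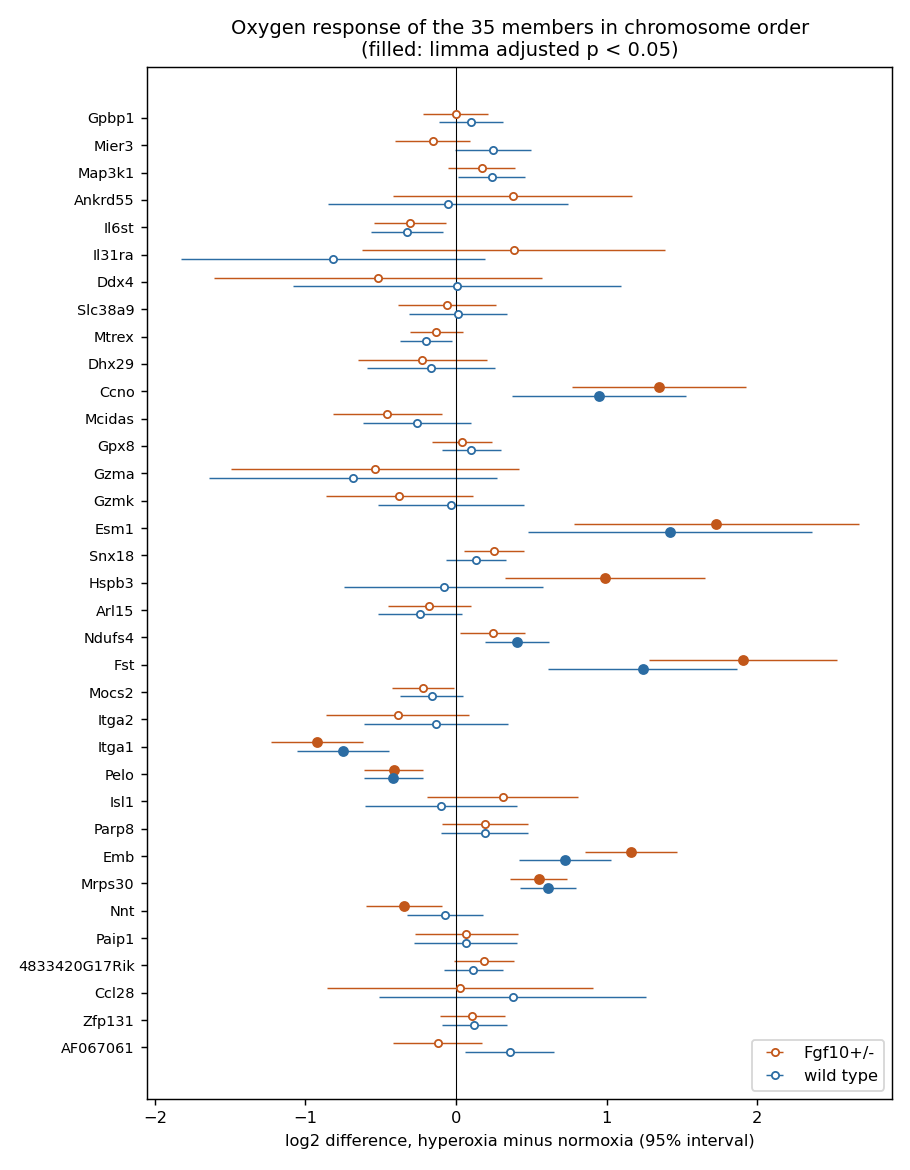
Difference of hyperoxia minus normoxia (horizontal axis, log2, with 95% intervals) for the 35 genes in chromosome order, in Fgf10+/- (orange, upper of each pair) and wild type (blue); filled points have a limma adjusted p under 0.05. Ccno, Esm1, Fst, Emb and Mrps30 are filled to the right of 0 in both genotypes, and Itga1 and Pelo to the left.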

How the data were processed

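RNA of lung homogenates was labelled with Cy3 and hybridised to single-colour Agilent arrays, per the labels' protocols. The deposited values are log2 intensities, 1 column per array. Array medians differed by at most 0.000677, and the sources used here do not state the background and normalisation steps. Of 62976 features, 31465 had 1 gene symbol and none had several. Symbols were updated through accessions (29050 features) or synonyms (349). Kept features exceeded their array's 25th percentile on 4 or more of 16 arrays, and the brightest kept feature stood for its gene. limma 3.58.1 in R 4.3.3 was fitted to all 16 arrays with a mean per group (12 residual and 2.13 prior degrees of freedom). Benjamini-Hochberg adjustment ran over 20173 genes, with calls at 0.05. The script was tested on simulated data.

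Genes given with every array's value passed in a genotype contrast or were added by smallest averaged p up to 8, and the 6 with the smallest p represent the oxygen contrasts. Lists are represented by up to 2 genes of smallest averaged p, and the 4 called lung epithelial markers were all named after their values were seen. Members and lists were chosen with earlier results of these data known. Replicate numbers did not pair the samples (correlations -0.03 to 0.09). RefSeq gave gene order and promoters. Alternatives covered filter, feature choice, scaling, moderation, weights, sex, replicate block, fit samples, permutation and left-out arrays.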

Additional observations from a re-analysis of the deposited data

How the results depend on the processing

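No called value of a named gene changed direction under the alternatives run. The number of the 35 genes called for the averaged genotype difference was 5, and 2 with the mean of all kept features standing for a gene. It lay between 5 and 6 when 1 array was left out. In normoxia the number was 3, and became 1 with the mean of all kept features, 5 with limma's trend and robust options and 0 with only the groups compared in the fit. It lay between 1 and 3 when 1 array was left out. In hyperoxia the number was 2, and became 1 with the mean of all kept features and 0 with only the groups compared. It lay between 2 and 3 when 1 array was left out. The fit with only the groups compared had fewer arrays to estimate the spread. In the mean of all kept features, the dimmer features of Nnt, Paip1 and AF067061, which did not pass, weighed as much as the brightest. For the other alternatives the cause was not tested.

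Averaged over oxygen levels, Emb and 4833420G17Rik were called in 25 of 25 limma alternatives, and Nnt, Paip1 and AF067061 in 24 of 25, the exception being the mean of all features. The replicate block left the counts at 3 in normoxia, 2 in hyperoxia and 5 averaged, and at 9 in Fgf10+/- and 8 in wild type for hyperoxia; no call count of the interaction left 0. Another scaling moved the median of all genes by at most 0.032. Signals under the array median, as for 7 of the 35 genes, limit what could be seen of these genes.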
